A study of Mus musculus with 18 samples.

Results

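The lysosome and autophagy genes are 32 genes picked by name for their roles: 16 acid hydrolases of the lysosomal lumen, 2 lumenal cofactors, 5 lysosomal membrane proteins, 2 subunits of the proton pump (V-ATPase), 6 genes of the autophagy machinery and the transcription factor Tfeb. All 32 were found by gene name among the 24539 genes listed in each library, and all 32 passed the filter on low counts in every fit. They were measured in livers of wild-type male C57BL/6 mice under 3 diets with 3 livers each: a high-fat diet with lycopene, the red carotenoid of tomatoes (HFD+LYC), the high-fat diet alone (HFD), and normal chow (control). Feeding lasted 8 weeks and the mice were 16 weeks old at sampling. Each liver gave a library of the RNA that sediments with translating ribosomes and their nascent chains (RNC) through sucrose, and a library of its total poly(A) RNA (mRNA). The 3 diets share strain, sex, genotype and age, and no chow group with lycopene was analysed here, so what lycopene does without the high-fat diet was not measured. Whole livers hold several cell types, and a lower level in such a sample cannot tell fewer cells of a type from less RNA per cell.

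Lysosomes break down proteins, sugars and lipids with acid hydrolases that enter the endoplasmic reticulum while they are translated and then travel to the lysosome, where the V-ATPase keeps the lumen acid. Macroautophagy delivers cytoplasmic cargo to them: the kinase Ulk1 and the Becn1 lipid kinase complex start the membrane, the enzyme Atg7 drives attachment of Map1lc3b and Gabarap to lipid, and Sqstm1 links cargo to these proteins. In liver these routes break down glycogen, lipid droplets and organelles, and Tfeb, a basic helix-loop-helix factor, is known to bind a promoter element built on the letters CACGTG in many lysosomal genes.

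Promoter windows of 250 bases before to 50 bases after the start were given by RefSeq (GRCm38.p6) for 27 of the 32 genes. Both strands read the same in CACGTG, and it stood in the windows of 11 of the 27 (40.7%), against 8.09% of 27025 genes in the table. The longer TCACGTGA, which holds CACGTG, stood in 6 of the 27 (22.2%), against 1.12%. Among the hydrolases 6 of 13 windows held CACGTG (Gaa, Ctsa, Ctsd, Ctsl, Gla and Glb1), among the membrane proteins 3 of 5 (Lamp1, Cln3 and Mcoln1), and among the autophagy genes 1 of 5 (Atg7). The 250 bases before the start of 5 genes are printed from 5′ to 3′ on the strand of the gene, because they show how many copies of the letters a window can hold; capitals mark CACGTG, or TCACGTGA where its outer letters are there too. Ctsd lies at chr7:142387828-142388077 (minus strand), Gla at chrX:134601006-134601255 (minus), Lamp1 at chr8:13158911-13159160 (plus), Mcoln1 at chr8:3500269-3500518 (plus) and Atg7 at chr6:114670846-114671095 (plus), which is inside the annotated extent of the gene.
Ctsd: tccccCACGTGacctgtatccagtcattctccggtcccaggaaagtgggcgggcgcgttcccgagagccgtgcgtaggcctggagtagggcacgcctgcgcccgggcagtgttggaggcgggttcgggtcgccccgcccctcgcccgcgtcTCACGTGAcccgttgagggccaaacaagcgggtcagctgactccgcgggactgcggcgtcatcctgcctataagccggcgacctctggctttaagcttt
Gla: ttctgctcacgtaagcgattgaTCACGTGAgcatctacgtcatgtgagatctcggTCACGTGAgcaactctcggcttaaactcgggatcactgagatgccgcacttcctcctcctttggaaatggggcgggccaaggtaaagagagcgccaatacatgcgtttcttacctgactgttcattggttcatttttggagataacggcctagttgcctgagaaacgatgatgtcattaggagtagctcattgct
Lamp1: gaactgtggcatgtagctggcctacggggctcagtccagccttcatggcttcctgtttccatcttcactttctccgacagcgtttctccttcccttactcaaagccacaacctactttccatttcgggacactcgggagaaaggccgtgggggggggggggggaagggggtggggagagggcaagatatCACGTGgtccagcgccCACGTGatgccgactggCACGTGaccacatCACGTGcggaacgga
Mcoln1: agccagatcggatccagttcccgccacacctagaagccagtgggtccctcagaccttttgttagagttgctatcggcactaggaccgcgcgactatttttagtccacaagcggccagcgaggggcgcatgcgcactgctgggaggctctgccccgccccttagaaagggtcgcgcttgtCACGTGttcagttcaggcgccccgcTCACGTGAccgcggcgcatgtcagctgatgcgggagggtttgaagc
Atg7: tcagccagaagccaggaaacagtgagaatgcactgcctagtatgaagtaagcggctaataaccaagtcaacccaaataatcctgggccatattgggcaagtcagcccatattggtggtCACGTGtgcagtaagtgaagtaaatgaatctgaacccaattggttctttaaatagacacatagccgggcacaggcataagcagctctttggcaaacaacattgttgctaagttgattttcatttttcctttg
Lamp1 had 4 copies of CACGTG within 61 bases of its start, Ctsd, Gla and Mcoln1 had 2 copies, and Atg7 had 1. In RNC libraries of HFD+LYC against HFD livers, 5 of the 11 genes with the letters and 7 of the 16 without them were called higher, with median log2 changes of 1.09 and 1.07.

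Libraries held 4533729 to 12742436 listed reads, and the 32 genes had 0 to 11210 reads in a library, with a mean of 20.2 reads for the thinnest, Gla. The 3 RNC libraries of HFD+LYC livers stood apart from the rest. They held reads from 8940, 9567 and 10037 genes in replicates 1, 2 and 3, against 13324 to 14450 genes in the 6 other RNC libraries, and 70 to 112 genes with exactly 1 read, against 614 to 861. Among mRNA libraries HFD+LYC replicate 2 stood apart, with reads from 13791 genes, against 14574 to 15332 in the others. It had 189 genes with exactly 1 read, against 652 to 798. The summed level of 11 hepatocyte markers in RNC was 403917, 113413 and 209401 CPM (a read count per 1e6 reads, scaled for library size and composition) in HFD+LYC, against 69112 to 101547 in HFD and 91867 to 112670 in control livers, and none of the 11 was at 0 in a whole diet. Markers of Kupffer cells, the macrophages of the liver, had sums of 227 to 346 CPM in HFD+LYC RNC, 478 to 843 CPM in HFD RNC and 400 to 465 CPM in control RNC. The part of these differences in the results below was not tested.

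In control mRNA the 32 genes spanned a wide range of levels per transcript length (RPKM, which is CPM per kilobase of the longest transcript; mean ± SD, n = 3 livers). Sqstm1 stood highest at 166 ± 40.7 RPKM, followed by Gabarap at 152 ± 74.9, the cysteine protease Ctsz at 132 ± 52.8 and the membrane glycoprotein Lamp2 at 119 ± 36.7 RPKM. At the low end were Tfeb at 5.38 ± 1.31, the membrane protein Cln3 at 5.18 ± 0.684, the β-glucuronidase Gusb at 4.62 ± 0.344, the β-galactosidase Glb1 at 3.01 ± 0.712 and the α-galactosidase Gla at 0.826 ± 0.110 RPKM. Neighbours in this order overlapped in their values except at 4 steps: Gaa over Man2b1, Mcoln1 over Tfeb, Gusb over Glb1 and Glb1 over Gla. Hydrolases and autophagy genes were thus interleaved, with both kinds among the highest and in the middle.

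**Figure D1:**
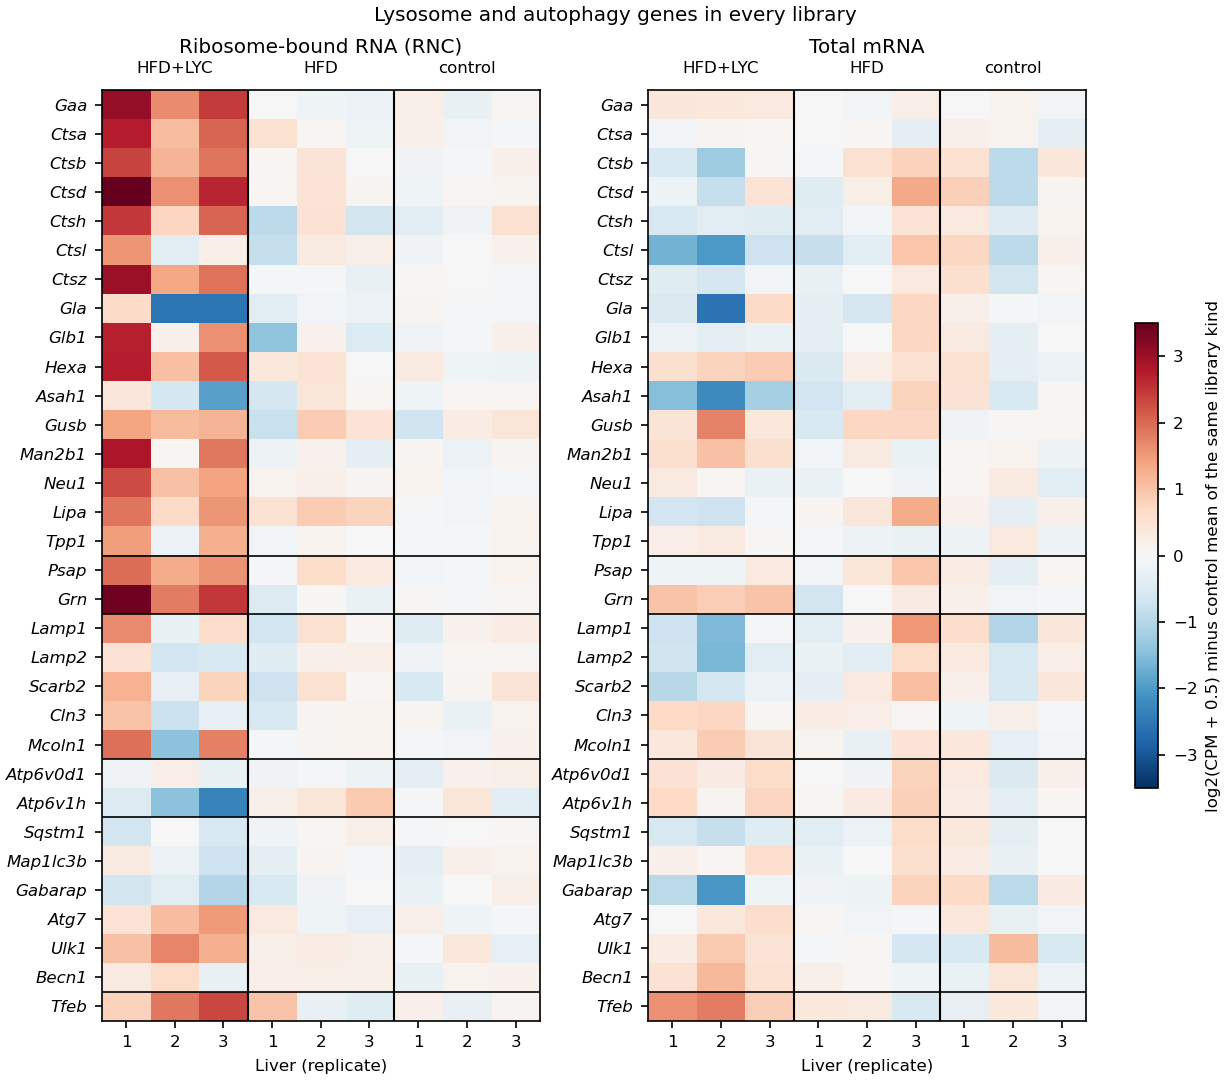
Level of each of the 32 genes (rows) in each library (columns), as log2(CPM + 0.5) minus the mean of the 3 control libraries of the same kind, red for higher and blue for lower; left, RNC, right, mRNA, with HFD+LYC, HFD and control livers from left to right in each. The red block of hydrolases and cofactors lies in the 3 RNC libraries of HFD+LYC livers and is deepest in replicate 1, while the 6 other RNC libraries stay pale.

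What the high-fat diet did to these genes was asked from HFD against control livers, and neither library kind gave a call. In mRNA 0 of 32 genes were called higher, where 0.0158% of all genes tested were, and 0 lower (all genes, 0%), by edgeR's quasi-likelihood test at a Benjamini-Hochberg adjusted p under 0.05; 0 of the 32 had an unadjusted p under 0.05 (all genes, 2.83%), and DESeq2 also called 0. No gene of the 32 was apart between these diets in mRNA, where 3.76% of all genes were apart upward and 3.46% downward. The median log2 change was 0.07, against -0.01 over all genes. In RNC 0 of 32 were called higher (all genes, 0.00858%) and 0 lower (0%), with a median of 0.03, against 0.01 over all genes; 1 of the 32 had an unadjusted p under 0.05 (all genes, 1.84%), and DESeq2 called 0. Few genes were called anywhere in these comparisons, and 0 calls do not show that the genes held their level.

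The gene nearest to a call under the high-fat diet was Lipa, the acid lipase that splits cholesteryl esters and triglycerides. Its RNC level was 107, 137 and 126 CPM in HFD livers, against 71.7, 69.4 and 80.1 CPM in control livers. Each HFD liver lay above each control liver (log2 fold change 0.74, SE 0.30, unadjusted p = 0.0327, edgeR adjusted p = 1 over all genes). Its mRNA was at 106, 130 and 245 CPM in HFD livers, against 110, 78.0 and 113 CPM in control livers, and here the groups overlapped. Psap, the precursor of the saposins that help lipid hydrolases, had a log2 change of 0.35 (SE 0.26) in RNC and 0.47 (SE 0.36) in mRNA, both short of a call. Besides Lipa, Becn1 was higher in RNC and Gla lower in RNC without overlap (2 of 32 apart upward, all genes 6.97%, and 1 of 32 apart downward, all genes 7.2%). Kupffer cell markers lay above control in 20 of 20 cases in RNC, where the share of all genes above 0 was not counted. Their median log2 change was 0.45, against 0.01 over all genes, and 0 were called. The part of Kupffer cells in the Lipa level was not tested.

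No gene of the 32 passed the test in total mRNA when lycopene was added to the high-fat diet. Calls appeared with DESeq2, with no low-count filter, with replicate numbers taken to pair livers, or without control replicate 2 or HFD+LYC replicate 3. In mRNA 0 of 32 were called higher (all genes, 1.99%) and 0 lower (all genes, 0.916%), and 9 had an unadjusted p under 0.05 (all genes, 24.3%). DESeq2 called 4 of the 32 (all genes, 11.8%). With no low-count filter edgeR called Tfeb higher (all genes, 2.01%) and Asah1 lower (all genes, 1.07%). Tfeb alone was called higher by edgeR without control replicate 2 (all genes, 3.03%) or without HFD+LYC replicate 3 (all genes, 1.73%). Same-numbered mRNA libraries of these diets deviated together from their diet means (r = 0.14, 0.32 and 0.49). HFD replicate 1 and HFD+LYC replicate 2 did so as well (r = 0.23), while the other pairs of unlike number were negative. Over all 3 diets, mRNA pairs of unlike number ran from r = -0.69 to 0.62. These values therefore do not establish that the numbers pair livers. With the replicate number as a block 5 of the 32 were called (all genes, 11.5%). These were Asah1 (adjusted p = 0.0186), Lipa (0.0371), Ctsl (0.0476) and Gabarap (0.0478), all lower, and Tfeb (0.0127), which was higher. Gabarap mRNA was at 79.7, 37.2 and 139 CPM in HFD+LYC livers, against 141, 137 and 265 CPM in HFD livers, so the diets overlapped. The RNC libraries of the same livers did not deviate together by number (r = 0.02, 0.04 and -0.07). Without overlap between the diets were 8 genes upward (all genes, 16.7%) and 5 downward (all genes, 15.2%). Hydrolases had a median log2 change of -0.39 and autophagy genes one of 0.28, against -0.04 over all genes. The hydrolase median rested on single libraries: it was -0.01 without HFD replicate 3 and -0.13 without HFD+LYC replicate 2.

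Asah1, the acid ceramidase, had the largest negative change of these genes in mRNA. It stood at 7.37, 4.21 and 9.39 CPM in HFD+LYC livers, against 13.2, 16.2 and 37.5 CPM in HFD livers and 30.9, 14.6 and 22.1 CPM in control livers. Every HFD+LYC liver lay below every HFD and control liver, with a log2 fold change of -1.67 against HFD (SE 0.46, edgeR adjusted p = 0.0717). Lipa mRNA was 61.9, 59.2 and 96.7 CPM in HFD+LYC livers, against 106, 130 and 245 CPM in HFD livers, again with no overlap (log2 -1.14, SE 0.38, adjusted p = 0.109). The cysteine protease Ctsl was at 102, 79.2 and 194 CPM in HFD+LYC livers, against 182, 248 and 631 CPM in HFD livers. For Ctsl replicate 3 of HFD+LYC exceeded replicate 1 of HFD, and the change of -1.50 had adjusted p = 0.141. Scarb2, a glycoprotein of the lysosomal membrane, had 27.9, 35.4 and 47.8 CPM in HFD+LYC livers, against 44.1, 69.6 and 115 CPM in HFD livers, with a small overlap (log2 -1.04, adjusted p = 0.139).

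On the upper side in mRNA stood Tfeb and Grn. Tfeb (chromosome 17, 47737037 to 47792416) was at 37.7, 43.2 and 22.1 CPM in HFD+LYC livers, against 15.6, 15.0 and 8.10 CPM in HFD livers and 9.85, 15.6 and 11.3 CPM in control livers. Each HFD+LYC liver exceeded each liver of both other diets. The change was 2.66-fold against HFD (log2 1.41, SE 0.35, edgeR adjusted p = 0.0534) and 2.80-fold against control (log2 1.49, SE 0.35, adjusted p = 0.0349). Against control Tfeb was the single gene of the 32 called in mRNA (1 higher, all genes 3.31%, and 0 lower, all genes 2.23%). That call was lost without control replicate 1 or 3, HFD replicate 2 or HFD+LYC replicate 1 or 2, with adjusted p up to 0.152 over 17 alternatives. Grn, which encodes progranulin, a secreted and lysosomal cofactor, had 215, 196 and 215 CPM in HFD+LYC mRNA, against 68.8, 109 and 132 CPM in HFD mRNA. The 3 HFD+LYC livers were close together and above all HFD livers (log2 1.02, SE 0.32, adjusted p = 0.0930).

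Ribosome-bound RNA gave a different picture: in HFD+LYC against HFD livers 14 of 32 genes rose (all genes, 9.34%) and 1 fell (all genes, 17.4%). The 14 were 10 of 16 hydrolases, both cofactors and 2 of 6 autophagy genes, and 0 of 5 membrane proteins were among them. Above 0 lay 25 of 32 changes (all genes, 42%), and 14 genes were apart upward (all genes, 13.3%) and 1 downward (all genes, 28.1%). The median log2 change was 1.78 for the hydrolases, 0.64 for the membrane proteins and 0.00 for the autophagy genes, against -0.29 over all genes. How libraries are scaled moved these medians: relative to the median of all genes, hydrolases stood 2.08 higher and autophagy genes 0.30 higher as reported, and 1.84 and 0.25 higher when libraries were scaled by their totals alone. Under that scaling the medians themselves were 0.97 for hydrolases and -0.62 for autophagy genes, 6 of the 32 were called higher (all genes, 2.78%) and 2 lower (all genes, 20.1%). Both medians also moved with the libraries and the tool. The autophagy median stood 0.17 above that of all genes without HFD+LYC replicate 1 and 0.60 above it without HFD+LYC replicate 3. It stood 0.54 above with no low-count filter, 0.52 with the replicate number as a block and 0.74 with limma-voom. In the same order the hydrolase median stood 1.65, 2.16, 2.31, 2.24 and 2.49 above that of all genes. Leaving out 1 library at a time gave 10 to 19 calls, with the fewest without HFD replicate 3.

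**Figure D2:**
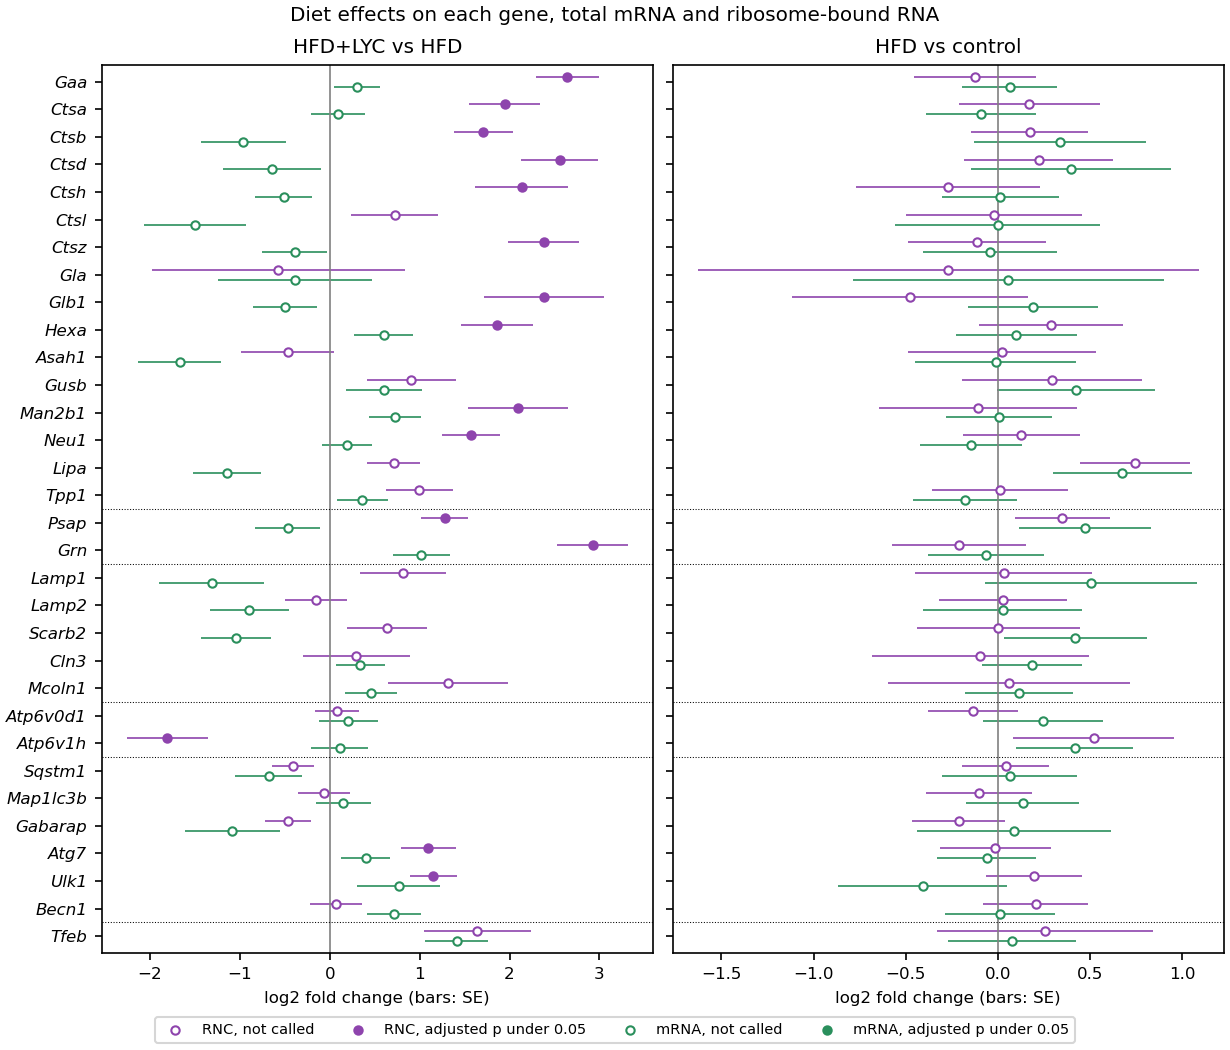
Log2 fold change with its SE for each gene, in RNC (purple) and mRNA (green), for HFD+LYC against HFD at left and HFD against control at right; filled points have an edgeR adjusted p under 0.05 and dotted lines part the gene groups. Filled points appear only for RNC at left, 14 to the right of 0 and Atp6v1h to the left, and most of them belong to the hydrolases and cofactors at the top.

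Among the lumenal proteases 5 of 7 rose. Ctsd (chromosome 7, 142375910 to 142387827), the aspartic protease of lysosomes whose promoter is printed above, reached 1495, 403 and 854 CPM in HFD+LYC RNC, against 139, 185 and 143 CPM in HFD and 119, 140 and 141 CPM in control RNC. All 3 HFD+LYC livers lay above all others, and the change was 5.90-fold (log2 2.56, SE 0.43, edgeR adjusted p = 0.00323). Ctsb, an abundant cysteine protease, was at 2102, 924 and 1501 CPM in HFD+LYC RNC, against 426, 557 and 402 CPM in HFD RNC, 3.27-fold higher (adjusted p = 0.00501). Ctsz, a carboxypeptidase of the same family, was at 1236, 393 and 573 CPM in HFD+LYC RNC, against 148, 149 and 127 CPM in HFD RNC (log2 2.38, SE 0.39, adjusted p = 0.00302). These 2 proteases also showed no overlap between the diets.

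Ctsa, a serine carboxypeptidase that also shields β-galactosidase and neuraminidase, had 644, 203 and 392 CPM in HFD+LYC RNC, against 138, 99.3 and 85.1 CPM in HFD RNC (3.85-fold, adjusted p = 0.00599). Ctsh, an aminopeptidase, had 523, 160 and 392 CPM in HFD+LYC RNC, against 50.0, 133 and 60.5 CPM in HFD RNC (log2 2.14, SE 0.52, adjusted p = 0.0129). The second libraries of the diets came near each other for Ctsh, and its call was lost without HFD replicate 1 or 3 (adjusted p up to 0.0850 over 17 alternatives). Ctsl and the tripeptidyl peptidase Tpp1 did not pass: Ctsl was at 923, 241 and 368 CPM in HFD+LYC RNC, against 176, 393 and 359 CPM in HFD RNC, and Tpp1 at 173, 53.7 and 148 CPM against 57.5, 67.1 and 63.0 CPM. In both, the second HFD+LYC library lay within or below the HFD range while the first lay far above it (log2 0.72 and 1.00, adjusted p = 0.323 and 0.0761).

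Glycosidases followed the proteases, with 5 of 7 called higher. Gaa (chromosome 11, 119267963 to 119285458), the acid α-glucosidase that clears lysosomal glycogen, was at 256, 95.3 and 167 CPM in HFD+LYC RNC, against 30.5, 26.9 and 25.7 CPM in HFD and 34.3, 25.1 and 31.1 CPM in control RNC. The diets were well separated, with a 6.23-fold change (log2 2.64, SE 0.35, adjusted p = 0.00106), although Gaa mRNA was 99.5, 97.6 and 95.7 CPM in HFD+LYC livers, against 77.1, 71.0 and 90.0 CPM in HFD livers (log2 0.30, adjusted p = 0.481). Neu1, a sialidase, had 102, 41.8 and 55.3 CPM in HFD+LYC RNC, against 22.2, 22.9 and 21.8 CPM in HFD RNC (2.97-fold, adjusted p = 0.00644). Hexa, the α subunit of β-hexosaminidase, had 133, 40.9 and 88.5 CPM, against 25.3, 27.6 and 19.7 CPM (log2 1.86, SE 0.40, adjusted p = 0.00759). All 3 genes were higher in each HFD+LYC liver than in each HFD liver.

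Glb1 was scarce, at 43.9, 7.10 and 20.2 CPM in HFD+LYC RNC, against 2.06, 6.96 and 4.38 CPM in HFD RNC, so its second HFD+LYC library barely cleared the HFD range (log2 2.38, SE 0.66, adjusted p = 0.0248). Man2b1, the lysosomal α-mannosidase, had 282, 40.5 and 142 CPM in HFD+LYC RNC, against 34.1, 43.5 and 31.1 CPM in HFD RNC, and is the one called gene whose diets overlapped (log2 2.09, SE 0.55, adjusted p = 0.0197). The calls were less secure for this pair. Both were lost with limma-voom, with the replicate number as a block, with the compared libraries alone and with totals alone. Glb1 also lost its call without HFD replicate 1, HFD replicate 3 or HFD+LYC replicate 1 (adjusted p up to 0.131 over 17 alternatives), and Man2b1 without any single HFD library (up to 0.0869). Gusb, at 20.1, 16.7 and 17.5 CPM in HFD+LYC RNC, against 4.13, 14.0 and 10.5 CPM in HFD RNC, was apart but not called (adjusted p = 0.219). Gla had 4.14 CPM in the first HFD+LYC RNC library and no read in the others, where 3 reads would make 0.575 and 0.402 CPM, against 1.75, 2.21 and 2.05 CPM in HFD RNC, and no change was detectable at this depth (adjusted p = 0.810).

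Neither lipid hydrolase was called against HFD. Lipa had 272, 118 and 216 CPM in HFD+LYC RNC, against 107, 137 and 126 CPM in HFD and 71.7, 69.4 and 80.1 CPM in control RNC. It overlapped with HFD (log2 0.71, adjusted p = 0.111) and was apart from control, where it was called (log2 1.45, SE 0.30, adjusted p = 0.00678). Asah1 had 30.6, 15.0 and 5.89 CPM in HFD+LYC RNC, against 15.1, 31.1 and 24.4 CPM in HFD RNC, with adjusted p = 0.568; the 3 HFD+LYC libraries ran from the top of the HFD range to below it.

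Both cofactors rose in RNC. Grn (chromosome 11, 102430507 to 102436809) reached 732, 240 and 387 CPM in HFD+LYC RNC, against 49.7, 70.6 and 58.5 CPM in HFD and 70.5, 65.7 and 71.0 CPM in control RNC. At 7.59-fold this was the largest change of the 32 genes in this comparison (log2 2.92, SE 0.39, adjusted p = 0.00109), with each HFD+LYC liver above all others. Psap was at 547, 351 and 420 CPM in HFD+LYC RNC, against 139, 224 and 181 CPM in HFD RNC, 2.43-fold higher without overlap (adjusted p = 0.00590).

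**Figure D3:**
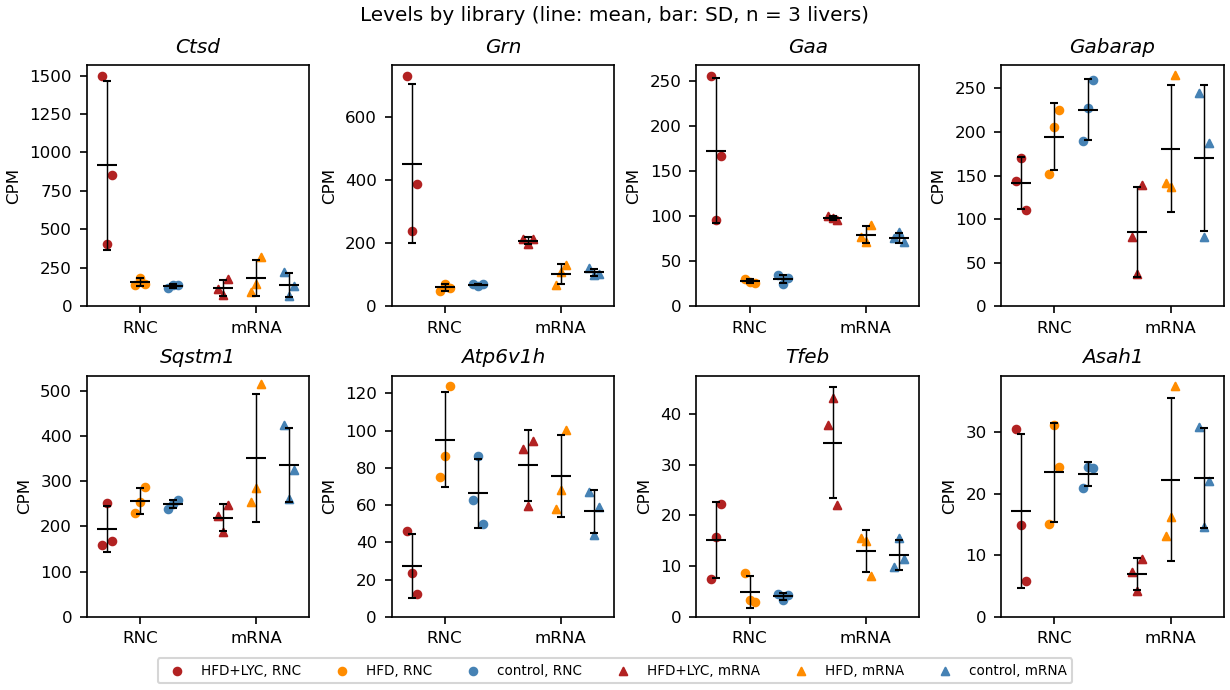
CPM of 8 genes in each library, RNC as circles and mRNA as triangles, with HFD+LYC in red, HFD in orange and control in blue; lines are means and bars SD of 3 livers. Ctsd, Grn and Gaa stand high in HFD+LYC RNC, with replicate 1 on top, Gabarap and Sqstm1 do not, Atp6v1h is low there, and Tfeb is high in HFD+LYC mRNA.

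The membrane proteins were not called in RNC. Lamp1 had 1114, 294 and 540 CPM in HFD+LYC RNC, against 224, 511 and 371 CPM in HFD RNC (log2 0.82, adjusted p = 0.260), and Lamp2, which is also a receptor of chaperone-mediated autophagy, had 754, 331 and 364 CPM against 390, 598 and 624 CPM (log2 -0.15, adjusted p = 0.789). Mcoln1, a lysosomal calcium channel, had 42.6, 3.64 and 38.0 CPM in HFD+LYC RNC, against 10.5, 11.5 and 11.8 CPM in HFD RNC, and so stood above the HFD libraries in 2 livers and below them in 1 (log2 1.32, adjusted p = 0.187). Scarb2 and Cln3 had log2 changes of 0.64 and 0.29. In all 5 the first HFD+LYC library was the highest of its diet.

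The V-ATPase subunits went separate ways. Atp6v1h (chromosome 1, 5082978 to 5163213), a regulatory subunit of the cytosolic sector, was at 46.2, 23.4 and 12.5 CPM in HFD+LYC RNC, against 75.1, 86.5 and 124 CPM in HFD and 62.8, 86.6 and 49.9 CPM in control RNC. It was lower in each HFD+LYC liver than in any other (log2 -1.81 against HFD, SE 0.45, adjusted p = 0.0152), and it lost its call without HFD replicate 3 (adjusted p = 0.0628). Its mRNA was 90.4, 59.6 and 94.5 CPM in HFD+LYC livers, against 57.9, 68.3 and 100 CPM in HFD livers, which overlapped. Atp6v0d1, of the membrane sector, had 35.6, 45.7 and 32.3 CPM in HFD+LYC RNC, against 35.7, 37.3 and 34.3 CPM in HFD RNC (log2 0.08, SE 0.25).

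Of the autophagy machinery, Ulk1 and Atg7 rose in RNC and the other 4 did not pass. Ulk1 had 61.7, 99.6 and 72.6 CPM in HFD+LYC RNC, against 34.8, 36.0 and 34.4 CPM in HFD RNC (2.22-fold, log2 SE 0.26, adjusted p = 0.00905). Atg7 had 42.2, 64.4 and 86.4 CPM in HFD+LYC RNC, against 38.4, 27.4 and 24.9 CPM in HFD RNC (2.13-fold, adjusted p = 0.0249). The diets did not overlap for either gene, but Atg7 lost its call with the replicate number as a block, with the compared libraries alone and without HFD replicate 2 or 3 or HFD+LYC replicate 3, and both lost theirs under scaling by totals alone (adjusted p = 0.373 for Ulk1 and 0.445 for Atg7). Here, unlike the hydrolases, the first HFD+LYC library was the lowest of its diet. Sqstm1 was at 160, 252 and 169 CPM in HFD+LYC RNC, against 229, 254 and 287 CPM in HFD RNC, and Gabarap at 143, 170 and 110 CPM against 152, 206 and 226 CPM. Both overlapped (log2 -0.41 and -0.46, adjusted p = 0.251 and 0.225). Map1lc3b and Becn1 had log2 changes of -0.06 and 0.07. Tfeb had 7.45, 15.7 and 22.2 CPM in HFD+LYC RNC, against 8.58, 3.29 and 2.87 CPM in HFD and 4.58, 3.26 and 4.35 CPM in control RNC; it overlapped with HFD (log2 1.64, adjusted p = 0.0690) and was called against control (log2 1.90, adjusted p = 0.0414).

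Set against control livers, HFD+LYC RNC gave 15 of 32 higher (all genes, 9.23%) and 0 lower (all genes, 17.1%). Of these, 13 were also called against HFD, with Lipa and Tfeb called against control alone and Glb1 and Atp6v1h against HFD alone. Both comparisons use the same 3 HFD+LYC libraries. The Tfeb call was the weakest: it was lost in 10 of 17 alternatives, among them without any single control library, HFD replicate 2 or 3 or HFD+LYC replicate 3 (adjusted p up to 0.181). Ctsh, Man2b1 and Atg7 lost theirs against control without control replicate 1 or 2 (adjusted p up to 0.112, 0.1001 and 0.388 over 17 alternatives), Man2b1 and Atg7 also without control replicate 3, Ctsh and Man2b1 also without HFD+LYC replicate 1, and Atg7 also without HFD+LYC replicate 3. Over 17 alternatives, 6 of the 15 genes called against HFD were called in each (Gaa, Grn, Ctsz, Ctsd, Ctsb and Ctsa).

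Within single RNC libraries the hydrolases and the autophagy genes could be compared without scaling between libraries. The median log2 level of the 16 hydrolases minus that of the 6 autophagy genes was 1.92, -0.16 and 0.98 in HFD+LYC RNC, against -0.08, 0.14 and -0.07 in HFD RNC and 0.24, -0.23 and 0.26 in control RNC. HFD+LYC replicates 1 and 3 were above all other RNC libraries, and replicate 2 was not. By reads, the hydrolases had 16.1, 4.08 and 9.99 reads for each autophagy read in HFD+LYC RNC, against 2.59, 3.08 and 2.29 in HFD RNC and 2.49, 2.25 and 2.45 in control RNC. By this measure all 3 HFD+LYC livers exceeded all others. In mRNA the same read ratio was 2.12, 1.85 and 2.15 in HFD+LYC livers. It was 2.22, 2.67 and 2.61 in HFD livers and 2.56, 1.73 and 2.50 in control livers. Each HFD+LYC liver lay below each HFD liver, the other way from RNC, while control livers overlapped with both. The order of the HFD+LYC RNC libraries, with replicate 1 first and replicate 2 last, was also the order of their summed hepatocyte markers, whose part was not tested.

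**Figure D4:**
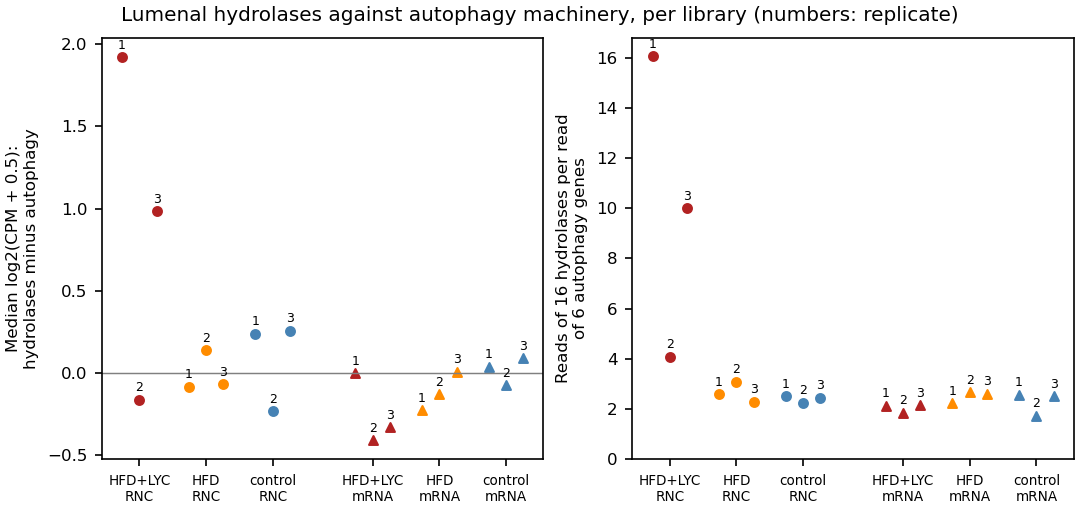
For each library, left, the median log2(CPM + 0.5) of 16 lumenal hydrolases minus the median of 6 autophagy genes, and right, the reads of the hydrolases per read of the autophagy genes; circles are RNC, triangles mRNA, and numbers are replicates. On the right the HFD+LYC RNC livers stand at 16.1, 4.08 and 9.99, above every other library, while on the left their replicate 2 falls among the others.

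A joint fit of all 18 libraries asked whether the diet effect in RNC differed from that in mRNA, which is a change of the ratio between them. In HFD against control livers 0 of 32 changed upward (all genes, 0%) and 0 downward (all genes, 0%), with 0 of 32 at an unadjusted p under 0.05 (all genes, 0.155%) and 0 by DESeq2. In HFD+LYC against HFD livers the ratio rose for 11 of 32 (all genes, 3.42%) and fell for 1 (all genes, 13%), and 26 of 32 changes lay above 0 (all genes, 38%). The 11 were 9 hydrolases and both cofactors, with 0 of the 6 autophagy genes. Medians were 1.79 for hydrolases and 0.26 for autophagy genes, against -0.41 over all genes, which is 2.20 and 0.67 above that median.

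Ctsd had the largest shift: its log2 ratio per liver was 4.66, 3.38 and 3.19 in HFD+LYC livers, against 1.55, 1.32 and -0.21 in HFD livers and 0.05, 2.06 and 1.00 in control livers. All HFD+LYC livers were above the rest (change 3.15, SE 0.76, edgeR adjusted p = 0.00831). Gaa had ratios of 2.26, 0.86 and 1.69 in HFD+LYC livers, against -0.35, -0.43 and -0.85 in HFD livers (change 2.28, SE 0.42, adjusted p = 0.00135). Ctsb, Ctsh, Ctsz and Glb1 changed by 2.60, 2.60, 2.70 and 2.82, and Ctsa, Lipa, Neu1, Psap and Grn by 1.32 to 1.85. With the liver as a block, since both libraries come from 1 liver, Glb1 and Neu1 were no longer called (adjusted p = 0.0578 and 0.0656). For Atp6v1h the ratio fell by 1.98, to -0.06, -0.45 and -1.99 in HFD+LYC livers, against 1.35, 1.30 and 1.25 in HFD livers (adjusted p = 0.0226). Ulk1, called in RNC, had ratios of -0.43, -0.40 and -0.41 in HFD+LYC livers, against -0.82, -0.92 and -0.34 in HFD livers (change 0.31, adjusted p = 0.754), and its mRNA was also on the upper side.

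The ratio calls depended on single libraries. Of the 12 called, 2 were left without HFD replicate 3 and 6 without HFD+LYC replicate 1, while 17 of 32 were called without HFD+LYC replicate 2. Gaa and Ctsz kept their calls in all 17 alternatives, while Neu1 kept its call in 5 (log2 0.48 to 1.63, adjusted p up to 0.530) and Glb1 and Atp6v1h theirs in 11 each. Neu1 lost its call without any single control or HFD library and without HFD+LYC replicate 1 or 3, and Atp6v1h without any single HFD library or HFD+LYC replicate 3. HFD replicate 3 was the mRNA library with the highest level of its diet for 22 of the 32 genes, against 40.3% of all genes. In the mRNA comparison 10 of 32 genes were lower in HFD+LYC than in HFD livers while higher in RNC, 7 of them hydrolases, and for 15 of 16 hydrolases the RNC change exceeded the mRNA change. Only Ctsh was apart in both library kinds, lower in mRNA and higher in RNC. Its mRNA was at 60.1, 68.0 and 66.2 CPM in HFD+LYC livers, against 69.0, 84.2 and 124 CPM in HFD livers. Of all genes 15.2% were apart downward in mRNA and 13.3% upward in RNC. The share apart in both, and the shares for the 10 and the 15 genes, were not counted.

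Within each diet, ribosome-bound RNA was set against total RNA of the same livers. In HFD+LYC livers 21 of 32 genes were higher in RNC (all genes, 12.8%) and 1, Becn1, lower (all genes, 30.6%). The 21 included 14 of 16 hydrolases, of which Ctsd had the largest log2 difference at 3.85 (SE 0.59, adjusted p = 0.000101), and 3 membrane proteins, with Lamp1 at 3.27, Scarb2 at 2.23 and Lamp2 at 1.93. Gabarap at 1.61 and Atg7 at 1.10 were the autophagy genes among them. These counts depended on scaling: by totals alone 8 of the 32 were higher (all genes, 2.26%) and 7 lower (all genes, 57.1%). The 7 were Cln3, Atp6v0d1, Atp6v1h, Map1lc3b, Ulk1, Becn1 and Tfeb. Scaling by totals alone also turned the difference for Neu1, Atg7, Man2b1 and Tpp1 negative. In HFD livers 0 genes were higher (all genes, 0%) and 0 lower (all genes, 0.101%), and in control livers 0 were higher (all genes, 0.0155%) and 0 lower (all genes, 2.11%). At an unadjusted p under 0.05 were 3 genes in HFD (all genes, 20.8%) and 10 in control livers (all genes, 27.3%), and DESeq2 called 2 (all genes, 8.89%) and 4 (all genes, 16.9%).

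Though short of a call, control livers had 19 of 32 genes above mRNA in RNC without overlap (all genes, 25.2%) and 3 below (all genes, 28.3%). Lamp1 had a log2 difference of 1.66 (SE 0.59, adjusted p = 0.0990), Gabarap 1.35, Lamp2 1.25 and Atp6v1h 1.18. Ulk1 was lowest at -1.33 (SE 0.38, adjusted p = 0.0643), with Tfeb at -0.63 and Gaa at -0.37 the others below. With the 3 HFD+LYC RNC libraries left out, 2 genes were called in HFD livers (all genes, 15.5%) and 8 in control livers (all genes, 28.8%). With higher and lower calls added, neither share was above that of all genes. By direction, HFD livers had 2 of 32 higher (all genes, 4.68%) and 0 lower (all genes, 10.9%). Control livers had 7 higher (all genes, 11.1%) and 1, Ulk1, lower (all genes, 17.7%). The share higher was thus above that of all genes in both diets, and the share lower was below it. The per-liver ratios in control show the width behind these values: Gabarap had 0.58, 2.50 and 1.40 and Lamp1 had 0.76, 2.98 and 1.64, with replicate 2 highest in both.

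Other genes of the same routes were counted as whole lists in HFD+LYC against HFD RNC, where 9.34% of all genes were higher and 17.4% lower. Of 35 further lysosomal hydrolases and activators 12 were higher and 0 lower, with a median log2 change of 1.09, with Naglu, which degrades heparan sulfate, at 2.93 (edgeR adjusted p = 0.00501), Dnase2a at 2.76, Plbd2 at 2.56 and Gm2a, a ganglioside activator, at 1.88. Ctsf, Man2b2, Fuca1, Smpd1 and Ppt2 were also called higher. Of 36 further autophagy genes 1 was higher and 6 lower, a share lower close to that of all genes, with a median of -0.32: Atg3, Atg5 and Atg12 of the conjugation system had -1.46, -2.70 and -1.42, the lipid kinase Pik3c3 had -3.15, Wipi2 and Tax1bp1 were the others lower, and Tecpr1 was higher at 3.29. Enzyme sorting genes had 5 of 9 higher and 0 lower, with the mannose 6-phosphate receptor Igf2r at 1.57 and Sort1, a sorting receptor, at 1.94, beside Gnptg, Nagpa and Gga1. Of 14 further V-ATPase subunits 3 were higher (Atp6v0a1, Atp6v0b and Atp6v0c, of the membrane sector) and 3 lower (Atp6v1b2, Atp6v1d and Atp6v1e1, of the cytosolic sector, to which Atp6v1h belongs too). Further membrane proteins had 2 of 18 higher (Tpcn1 and Lmbrd1) and 1 lower (Tmem55b), and regulators had 2 of 19 higher (Fnip1 and Foxo3) and 3 lower (Mitf, Zkscan3 and Rraga). Over the 131 wider genes tested this made 25 higher and 13 lower. In mRNA 1 of the 132 was higher (Ctsf, all genes 1.99%) and 2 were lower (Ctso and Ctss, all genes 0.916%).

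Markers of liver cell types stand beside these RNC changes. Hepatocyte markers had 3 of 11 higher and 0 lower in HFD+LYC against HFD RNC, where 9.34% of all genes were higher and 17.4% lower. Their 6 secreted proteins, split from the rest after the values were seen, had 2 higher and a median of 1.04, and their 5 intracellular proteins had 1 higher and a median of 0.38. Kupffer cell markers had 0 of 20 higher and 6 lower, with a median of -1.35 in RNC and -1.08 in mRNA. Stellate cell markers had 0 of 10 higher and 3 lower in RNC, with sums of 155 to 217 CPM in HFD+LYC, against 334 to 390 CPM in HFD livers. Endothelial markers had 0 of 10 higher and 2 lower in RNC, with sums of 56.2 to 108 CPM in HFD+LYC, against 135 to 185 CPM in HFD livers. In mRNA the endothelial sums lay the other way, at 438 to 631 CPM in HFD+LYC, against 303 to 360 CPM in HFD livers, with 1 of 10 called higher. Cholangiocyte markers summed to 31.7 to 50.2 CPM in HFD+LYC mRNA, against 137 to 178 CPM in HFD mRNA. Erythroid markers had 2 of 5 tested higher and lymphocyte markers 2 of 3 tested lower in RNC, and 4 of the 6 lymphocyte markers were at 0 in HFD+LYC RNC. Skeletal muscle markers summed to at most 8.28 CPM in any library. The part of these cell types and of secretory transcripts in the change was not tested.

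Among livers of 1 diet many of the genes were highest or lowest in the same library. In HFD+LYC RNC replicate 1 had the highest level of its diet for 16 of 16 hydrolases (all genes with 3 different levels, 33.3%) and replicate 2 the lowest for 15 of 16 (all genes, 33.1%). Levels in CPM, here and above, rest on composition factors (TMM), which were 0.428, 1.15 and 0.836 in these 3 libraries. As a share of listed reads, without such factors, the hydrolases together had 0.352%, 0.316% and 0.412%. By that measure replicate 3 was highest, so the lead of replicate 1 depends on the scaling. In HFD RNC replicate 2 was highest for 14 of 16 (all genes, 33.6%). In control mRNA replicate 2 was lowest for 21 of 32 genes (all genes, 40%): its Ctsb was 191 CPM, against 529 and 476 CPM in replicates 1 and 3, while Ulk1 went the other way with 276 CPM, against 88.4 and 87.5 CPM. Without that library the log2 change of Ulk1 mRNA in HFD against control livers turned to 0.37, against -0.41 with it.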

How the data were processed

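Poly(A) RNA libraries of 9 livers, total (mRNA) and ribosome-bound (RNC), gave 18 files. Per the file headers, the deposited values were a read count and an RPKM per gene, with splice variants merged. The authors' deposited RPKM divides that count by the length of the longest transcript and a total, and it was not used for tests. The submitters' processing notes name bcl2fastq and mm10; no aligner or strand setting is given in the sources used here. Reads from both strands may therefore mix where genes overlap, as 10 of the 32 do with another listed gene (Ctsa, Ctsb, Ctsz, Glb1, Hexa, Asah1, Scarb2, Cln3, Map1lc3b and Becn1), and their levels are uncertain for that reason. The sum of listed reads was 4533729 to 12742436 per library, and a further 0.765% to 29.9% of the total implied by RPKM was not listed.

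The deposited read counts were tested with edgeR 4.0.16 in R 4.3.3 (filterByExpr by group with minimum count 10 and minimum total 15, TMM factors, robust quasi-likelihood fit, two-sided test, Benjamini-Hochberg over all genes tested, called under 0.05). The 9 mRNA libraries (12664 genes), the 9 RNC libraries (11660 genes) and all 18 libraries (12872 genes, for ratios and for RNC against mRNA) were fitted apart, with 6, 6 and 12 residual degrees of freedom. CPM and RPKM in the text were recomputed from the counts with the factors of the fit of that library kind; log2 ratios per liver use the 18-library factors and a pseudocount of 0.5. "All genes" beside a count is the percentage of all genes tested that met the same criterion. Alternatives were DESeq2 1.42.0, limma-voom 3.58.1, other factors, no low-count filter, a block, the compared libraries alone and each replicate left out; leaving out the 3 HFD+LYC RNC libraries together and scaling by library totals alone were added after the data were seen. The code for the edgeR fits was tested on simulated counts, in a single comparison per fit, and the other steps were not tested in this way. Gene coordinates, promoters and their sequences come from RefSeq (GRCm38.p6); promoter windows for Ctsb, Ctsh, Asah1, Atp6v1h and Becn1 were not used here. In comparisons between diets, values of every library are given for called genes and for up to 6 genes with the smallest p, and called genes of a wider list are named, except some that are not reported here.

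The genes and the lists were chosen with earlier results of these data known, and the genes of a list are not replicates of a condition. Labels name the animals only by diet and number, so the p-values measure the spread between these samples. The mRNA and RNC files of a diet and number carried the same animal code for 9 of 9 livers and were taken as 1 liver; residuals of the same liver correlated at r = -0.04 to 0.56, with 3 of 9 pairs over 0.1. Across diets the numbers are not stated to link animals; every same-numbered pair correlated over 0.1 for HFD+LYC and HFD mRNA, and not for any other 2 diets in mRNA or RNC, so the blocked calls stand beside that comparison. Cell type markers were 11 hepatocyte, 20 Kupffer cell, 10 sinusoidal endothelial, 10 stellate, 6 cholangiocyte, 6 lymphocyte, 6 erythroid and 7 skeletal muscle genes.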

Additional observations from a re-analysis of the deposited data

Results flagged for a closer look

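For 12 genes the RNC to mRNA ratio changed in HFD+LYC against HFD livers, so the diet effect in RNC differed from that in mRNA by edgeR's test of the interaction. The log2 change of the ratio was 3.15 for Ctsd, 2.82 for Glb1, 2.70 for Ctsz, 2.60 for Ctsb, 2.60 for Ctsh, 2.28 for Gaa, 1.85 for Grn, 1.79 for Lipa, 1.79 for Ctsa, 1.68 for Psap, 1.32 for Neu1 and -1.98 for Atp6v1h. Ctsh was also lower in each HFD+LYC liver than in each HFD liver in mRNA (log2 -0.51) and higher in each in RNC. The share of all genes with this pattern was not counted. Neu1 kept its call in 5 of 17 alternatives and Atp6v1h and Glb1 in 11 each, and Neu1 and Glb1 lost theirs with the liver as a block. The same 3 HFD+LYC RNC libraries, which held reads from fewer genes than the other RNC libraries, stand behind every one of these values, and the part of that property was not tested.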

How the results depend on the processing

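Counts of genes called among the 32 depended on the tool where few were called. In HFD+LYC against HFD mRNA, where 0 were called, DESeq2 called 4 (all genes, 11.8%), edgeR with no low-count filter 2 (532 of all 17287 genes) and edgeR with a replicate block by number 5 (all genes, 11.5%). In HFD+LYC against control mRNA, where 1 was called, these gave 4 (1628 of all 12664 genes), 2 (751 of 17287) and 3 (1425 of 12664). There the compared libraries alone gave 2 (529 of 12125) and library totals alone gave 0 (384 of 12664). For RNC against mRNA in HFD livers, where 0 were called, DESeq2 gave 2 (all genes, 8.89%), the compared libraries alone 1 (655 of all 12081 genes), the fit without the 3 HFD+LYC RNC libraries 2 (all genes, 15.5%) and totals alone 1 (1053 of 12872). In control livers, where 0 were called, these gave 4 (all genes, 16.9%), 9 (3882 of 11746 genes), 8 (all genes, 28.8%) and 4 (2024 of 12872 genes). RLE size factors gave 1 there (525 of 12872 genes). In HFD and control livers none of these shares, with higher and lower calls added, was above that of all genes. The share higher alone was above it in some settings. DESeq2 gave 2 higher in HFD livers (all genes, 2.04%) and 3 in control livers (all genes, 3.82%). The compared libraries alone gave 1 (all genes, 2.19%) and 8 (all genes, 11.8%), and the fit without the 3 HFD+LYC RNC libraries 2 (all genes, 4.68%) and 7 (all genes, 11.1%). Totals alone gave 0 higher in both diets (all genes, 0%). Totals alone gave 8 calls in HFD+LYC against HFD RNC, where 15 were called (2671 of all 11660 genes). For the RNC to mRNA ratio, where 12 were called, they gave 6 (2478 of 12872 genes). For RNC against mRNA in HFD+LYC livers, totals alone gave 8 higher and 7 lower (all genes, 2.26% and 57.1%), where 21 were higher and 1 lower. The cause was not tested. The replicate block by liver left 10 of 12 ratio calls (not Glb1 and Neu1), and the block by number 12 of 15 calls in RNC. Of 9 same-numbered pairs 7 in mRNA and 2 in RNC had r over 0.1 (mRNA -0.44 to 0.49, RNC -0.07 to 0.36), with every pair over 0.1 for HFD+LYC against HFD mRNA alone. Of 18 pairs of different number, 4 in mRNA and 2 in RNC were over 0.1 (mRNA -0.69 to 0.62, RNC -0.31 to 0.27).

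Leaving out 1 library at a time gave 0 to 1 calls in HFD+LYC against HFD mRNA, 0 to 2 against control mRNA, 10 to 19 in HFD+LYC against HFD RNC, 11 to 20 against control RNC, 2 to 17 for the ratio in HFD+LYC against HFD, 19 to 22 for RNC against mRNA in HFD+LYC livers and 0 to 3 in control livers. The median change of hydrolases minus that of autophagy genes then ran from 1.48 to 2.17 in HFD+LYC against HFD RNC, 1.23 to 2.22 against control RNC, 0.94 to 2.09 for the ratio, -0.76 to -0.41 in HFD+LYC against HFD mRNA, -0.61 to -0.25 against control mRNA, -0.0025 to 0.17 in HFD against control mRNA, -0.23 to 0.092 for the ratio in HFD against control, and -0.19 to 0.22 for RNC against mRNA in HFD livers. Some values changed sign: in HFD against control mRNA Ulk1 ran from -0.68 to 0.37 (without control replicate 2) and Scarb2 from -0.0092 (without HFD replicate 3) to 0.70, and for the ratio, without HFD replicate 3, Atp6v0d1 ran from -0.72 to 0.018, Scarb2 from -0.80 to 0.023 and Lamp1 from -0.97 to 0.30. With totals alone RNC minus mRNA in HFD+LYC livers was -0.32 for Neu1, -0.12 for Atg7, -0.52 for Man2b1 and -0.72 for Tpp1. Of 1820 pairs of a gene and an alternative, 1617 kept direction and call, 148 lost and 46 gained a call, and 9 changed sign.

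Over all genes, tools and scalings gave 135 to 1491 calls in HFD+LYC against HFD mRNA (368 as reported), 384 to 1628 against control mRNA (701), 1 to 41 in HFD against control mRNA (2), 0 to 33 in HFD against control RNC (1), 0 to 1 for the ratio in HFD against control (0), 1790 to 4088 in HFD+LYC against HFD RNC (3120), 2032 to 4061 against control RNC (3072), 1425 to 2780 for the ratio (2116), and for RNC against mRNA 2179 to 7642 in HFD+LYC (5586), 1 to 1990 in HFD (13) and 2 to 3882 in control livers (274). With 3 livers a diet, few reads limit Gla most. Floors of 3 reads cover counting error only, while the SE and SD values include the spread between livers. The mean in place of the median over genes lowered the hydrolase level minus the autophagy level in each library, to 1.49, -0.54 and 0.64 in HFD+LYC RNC.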
